A study of Homo sapiens with 15 samples.

Results

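Doxycycline induction of wild-type (WT) FOXA1 was followed by FOXA1 chromatin immunoprecipitation and sequencing (ChIP-seq) in 22Rv1, a cell line established from a human prostate carcinoma. The comparison was chosen by its sample labels and sets 2 peak lists of 1 engineered line side by side, with 8575 peaks called without doxycycline and 31735 called with it, or 40310 of the 249079 peaks in the 12 lists of the series. Both samples came from cells that overexpressed Y36C-PHF5A, a form of a splicing factor subunit, together with a doxycycline-inducible WT FOXA1, and both received DMSO at 0.1% for 3 h. The sample called induced here also received doxycycline. For reference, the DMSO list of parental cells, which carry neither construct, held 30557 peaks. The other lists came from parental cells with PladB, the stereoprobes WX-02-23 or WX-02-43, a control siRNA (siControl) or an siRNA against FOXA1 (siFOXA1), and from a line with Y36C-PHF5A and an inducible C258A FOXA1, profiled uninduced, induced in DMSO and induced in WX-02-23. The WT line was also profiled induced in WX-02-23. Stereoprobes were given at 20 uM.

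FOXA1 is a forkhead transcription factor of the pioneer class, which can bind its sites on nucleosomal DNA and make nearby DNA accessible to other factors. In prostate cells it is known for setting where the androgen receptor binds, and the amount of FOXA1 is known to affect which sites are occupied. Doxycycline commonly acts in such systems through a Tet-responsive promoter that drives the introduced gene. PHF5A is a subunit of the SF3B splicing complex. The antibody is labelled only as FOXA1, so endogenous and induced protein were measured together. No list came from doxycycline-treated cells that lack an inducible FOXA1, so doxycycline itself and the induced protein cannot be told apart. The labels give neither the dose or time of doxycycline nor the amount of FOXA1 protein reached, and they do not say whether the line was 1 clone. Peak lists hold no expression values, so neither the cell type nor the induction itself could be checked against marker genes.

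With 1 library on each side, differences carry no replicate error, and neither tests nor p-values are given. Read totals were not analysed here, so sequencing depth is unknown for every list, and the length of a list can change with depth and with enrichment quality. A peak was counted as shared when it overlapped a peak of the other list by at least 1 bp. The score is the authors' value for each peak, whose definition is not given in the sources used here, and it was used only to rank peaks within a list. For this purpose each list was divided by score into 10 groups of equal size, and score group 1 holds the highest scores. Shares carry Wilson 95% binomial intervals, which reflect counting error alone, as if each peak were an independent draw.

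The induced list had 3.70 times as many peaks as the no-doxycycline list and covered 5.37 times as much sequence (21.3 Mb against 3.96 Mb). Most no-doxycycline peaks were still called with doxycycline, and most induced peaks were at other places. Of the no-doxycycline peaks, 6286 (73.3%, interval 72.4 to 74.2%) were kept and 2289 (26.7%) were lost. Of the induced peaks, 6216 (19.6%) were shared with the no-doxycycline list and 25519 (80.4%, 80.0 to 80.8%) were added. With the induced list shortened to its 8575 highest scores, the kept share was 34.2%. The kept and shared counts differ because some peaks overlapped 2 or more peaks of the other list. This was so for 72 induced peaks and 5 kept peaks.

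The added peaks were then divided by the parental DMSO list. Only 5213 added peaks (16.4% of the induced list) overlapped a parental DMSO peak, and 20306 (64.0%, 63.5 to 64.5%) overlapped neither list. Overlap with the parental DMSO list was 95.5% for the no-doxycycline peaks and 35.7% for the induced peaks. In the other direction, 26.3% of the parental DMSO peaks overlapped a no-doxycycline peak and 36.6% an induced peak. The longer induced list therefore held 11176 parental sites against 8044, while most of its length lay elsewhere. The 20306 added peaks without a parental DMSO peak are called new sites below, as a name for these lists.

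New sites were found from the top of the induced list to its bottom. In score group 1 of the induced list, 43.2% (41.5 to 44.9%) of the 3174 peaks were shared with the no-doxycycline list, 15.8% were added at a parental DMSO peak and 41.0% (39.3 to 42.7%) were new sites. In score group 2 the new sites made up 55.0%, and in score group 10 they made up 72.0%. The share added at parental DMSO peaks hardly moved with rank, at 15.7% in score group 2 and 18.8% in score group 10. With the induced list reduced to its 8575 highest-scoring peaks, the length of the other list, 33.4% were shared, 15.8% were added at parental DMSO peaks and 50.7% (49.7 to 51.8%) were new sites. The median score was 294 for shared peaks, 182 for added peaks at parental sites and 175 for new sites, and the highest scores of the 3 classes were 3219, 3162 and 3148.

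**Figure D1:**
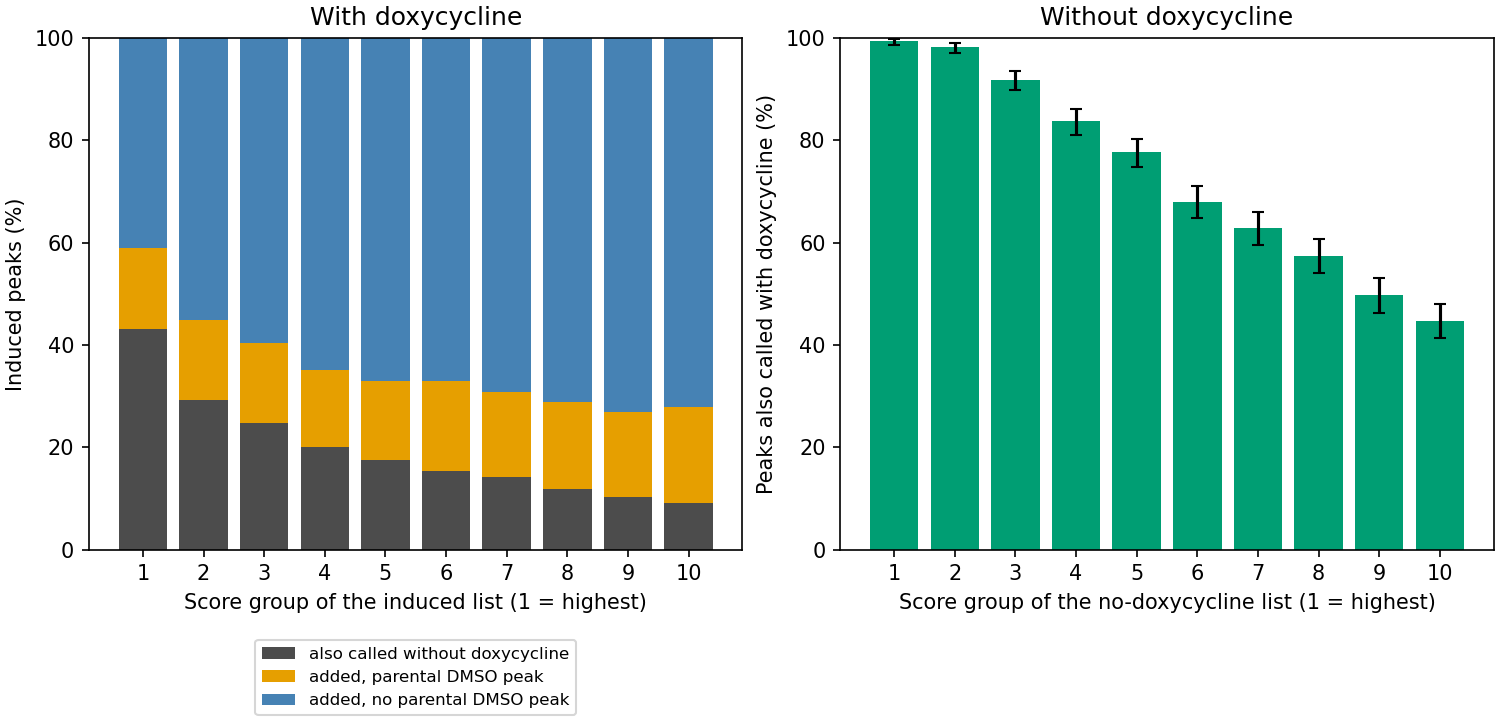
Left, composition of the induced list in percent by score group; right, percent of no-doxycycline peaks also called with doxycycline by score group, with Wilson 95% intervals as bars. New sites make up 41.0% of the highest induced score group and 72.0% of the lowest, and the kept share goes from 99.3% in the highest no-doxycycline group to 44.7% in the lowest.

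Among no-doxycycline peaks, the strong ones were kept and the weak ones often were not. In score group 1, 852 of 858 peaks were kept (99.3%, 98.5 to 99.7%). The kept share was 98.2% in group 2, 91.8% in group 3, 77.6% in group 5 and 44.7% (41.4 to 48.0%) in group 10. The median score of lost peaks was 116, against 190.4 for kept peaks.

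Kept peaks had nearly the same centres in both lists but different ranks. There were 6136 pairs in which 1 no-doxycycline peak met 1 induced peak. Their centres lay a median of 38.5 bp apart, and the offset was under 106 bp in 90% of pairs. The induced partner was wider in 5942 pairs (96.8%), with a median width of 695 bp against 460 bp and a median ratio of 1.52. As a whole, the no-doxycycline list had the smallest median width of the 12 lists, 443 bp. The median was 634 bp in the induced list and 682 bp in the parental DMSO list, made without doxycycline. The wider partners are therefore not shown to be particular to kept peaks. Scores of the paired peaks had a Spearman rho of 0.48, given as a description across sites that share a library on each side. Of the paired peaks in score group 1 without doxycycline, 69.5% were in score group 1 of the induced list and 1.69% were in its lower 5 groups. Of the paired peaks in group 10, 7.88% (5.54 to 11.1%) were in score group 1 of the induced list and 49.2% were in its lower 5 groups.

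Width followed score in both lists, so classes were compared at equal rank. Over the whole induced list the median width was 696 bp for shared peaks, 640 bp for added peaks at parental sites and 613 bp for new sites. In score group 1 the order was different, with 889, 933 and 922 bp, and in group 5 the medians were 652, 659 and 652 bp. In group 10 shared peaks were the widest again, with 533, 509 and 470 bp. Lost peaks had a median width of 400 bp against 460 bp for kept peaks, and were the narrower class in 8 of 10 score groups, by 451 against 514 bp in group 2 and by 373 against 375 bp in group 10. The 6 lost peaks of score group 1 were instead far wider than the kept ones, with medians of 2736 and 573 bp.

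Parental sites were called unevenly in the 2 lists of the WT line. In score group 1 of the parental DMSO list (3056 peaks), 86.7% (85.5 to 87.9%) were called without doxycycline and 83.3% (82.0 to 84.6%) with it, although the induced list was the longer one. In score group 2 of the parental list the shares were 59.1% and 62.1%, in group 5 they were 17.6% and 31.2%, and in group 10 they were 2.52% and 15.1%. The order in score group 1 depended on the overlap rule, since a reciprocal overlap of 50% gave 19.0% without and 67.8% with doxycycline. With the induced list shortened to 8575 peaks the shares were 86.7% and 57.0%. Median widths differ between the parental and the no-doxycycline list, at 682 and 443 bp, and a reciprocal rule removes overlaps between peaks of unequal width by its construction.

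Of all parental DMSO peaks, 19.8% were called in both WT-line lists, 6.50% only without doxycycline, 16.7% only with it and 56.9% in neither. The median parental score was 776 for those in both lists, 413 for those called only without doxycycline, 227 for those called only with it and 167 for those in neither. Parental sites called only with doxycycline thus had lower parental scores than those called only without it. The induced list was also the longer one, with 31735 against 8575 peaks, and a longer list can reach weaker sites. How far this order follows from list length was not tested.

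**Figure D2:**
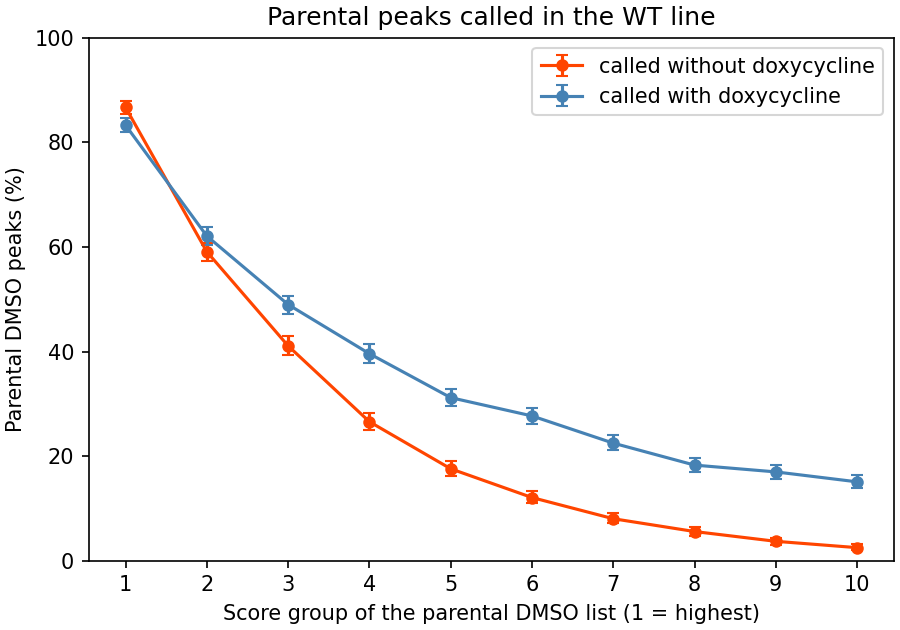
Percent of parental DMSO peaks called in the WT line without and with doxycycline, by score group of the parental list, with Wilson 95% intervals as bars. The curves lie at 86.7% and 83.3% in the highest group and at 2.52% and 15.1% in the lowest.

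The other lists show where else these sites were called. The parental DMSO list defined the classes of added peaks, so for new sites its share is 0 by definition. New sites also lack a peak of the WT line without doxycycline by definition. Low shares in the other lists made without doxycycline can follow in part from this choice of sites, and how far was not tested. New sites were rare in the lists made without doxycycline, including lists as long as the induced one. They were called at 4.38% (4.11 to 4.67%) with siControl and at 4.23% with PladB, whose lists held 34119 and 33121 peaks. The share was 2.98% with WX-02-23, 0.739% with WX-02-43, 1.49% in C258A cells without doxycycline and 0.00985% (2 peaks) with siFOXA1. In all, 18505 new sites (91.1%, 90.7 to 91.5%) overlapped no peak of the 7 other lists made without doxycycline, of which the parental DMSO list is 1.

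In the 3 other lists made with doxycycline, new sites were common. The WT line with WX-02-23 had a peak at 56.6% (56.0 to 57.3%) of them, against 34.7% (34.0 to 35.3%) in C258A cells with DMSO and 49.8% (49.1 to 50.5%) when C258A cells received WX-02-23. These lists held 25849, 13299 and 20609 peaks, so the shares had the same order as the list lengths. Of the new sites left in the induced list at 8575 peaks, 91.4% had a peak in the WT line with WX-02-23. As shares of those lists, the peaks at new sites made up 44.9%, 53.4% and 49.5%, against 2.60% of the siControl list and 2.39% of the C258A list without doxycycline. The low values of the last 2 lists can follow in part from how new sites were chosen. A total of 14451 new sites (71.2%) were called in at least 1 of the 3 lists, and 5244 (25.8%) in all of them. Strong new sites were called almost throughout: of the 1302 in score group 1, 98.5% had a peak in WT cells with WX-02-23, 93.5% in C258A cells with DMSO and 97.6% in C258A cells with WX-02-23, while 6.14% were called with siControl. Other induced peaks of score group 1 had slightly higher shares in the same 3 lists, with 99.3%, 98.5% and 99.5% for shared peaks and 496, 476 and 494 of 501 added peaks at parental sites. For new sites in score group 10 the shares in these 3 lists were 25.2%, 6.82% and 18.1%. Both engineered lines carry Y36C-PHF5A, which the WT and C258A lists without doxycycline share with those made with it.

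Added peaks at parental sites were told apart from new sites by the parental DMSO list. Their higher shares in other lists made without doxycycline follow in part from that split. Added peaks at parental sites were called at 89.2% with siControl, at 41.2% (39.9 to 42.5%) in C258A cells without doxycycline and at 58.3% in WT cells with WX-02-23. At least 1 of the 3 other lists made with doxycycline had a peak at 71.6% of them and at 71.2% of new sites. The C258A list without doxycycline was 12752 peaks long, against 8575 for the WT line, so part of this class was called in an uninduced engineered line with a longer list. For new sites the same list gave 1.49%.

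Lost peaks were mostly parental sites too, though less often than kept peaks. Of the 2289 lost peaks, 88.2% (86.9 to 89.5%) overlapped a parental DMSO peak, 92.5% a siControl peak and 62.6% a C258A peak without doxycycline. For kept peaks these shares were 98.2%, 98.6% and 93.6%. Under a reciprocal overlap of 50% the parental DMSO share of lost peaks was 38.2%. With doxycycline lost peaks were seldom called: 15.9% (14.5 to 17.5%) in WT cells with WX-02-23, 9.57% in C258A cells with WX-02-23 and 2.23% (1.70 to 2.92%) in C258A cells with DMSO. For kept peaks the shares in these 3 lists were 75.8%, 73.9% and 56.5%. Lost and kept peaks were separated by the induced list, so a gap in other lists made with doxycycline follows in part from their definition. A comparison at equal score does not remove this. Since lost peaks had lower scores, the classes were also compared within score group 5 of the no-doxycycline list, where 19.8% of 192 lost and 68.0% of 666 kept peaks had a peak in WT cells with WX-02-23, and 2.08% and 47.1% in C258A cells with DMSO. In that group 95.8% of lost and 98.9% of kept peaks were siControl peaks. C258A cells without doxycycline had a peak at 82.3% of these lost and 95.3% of these kept peaks.

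**Figure D3:**
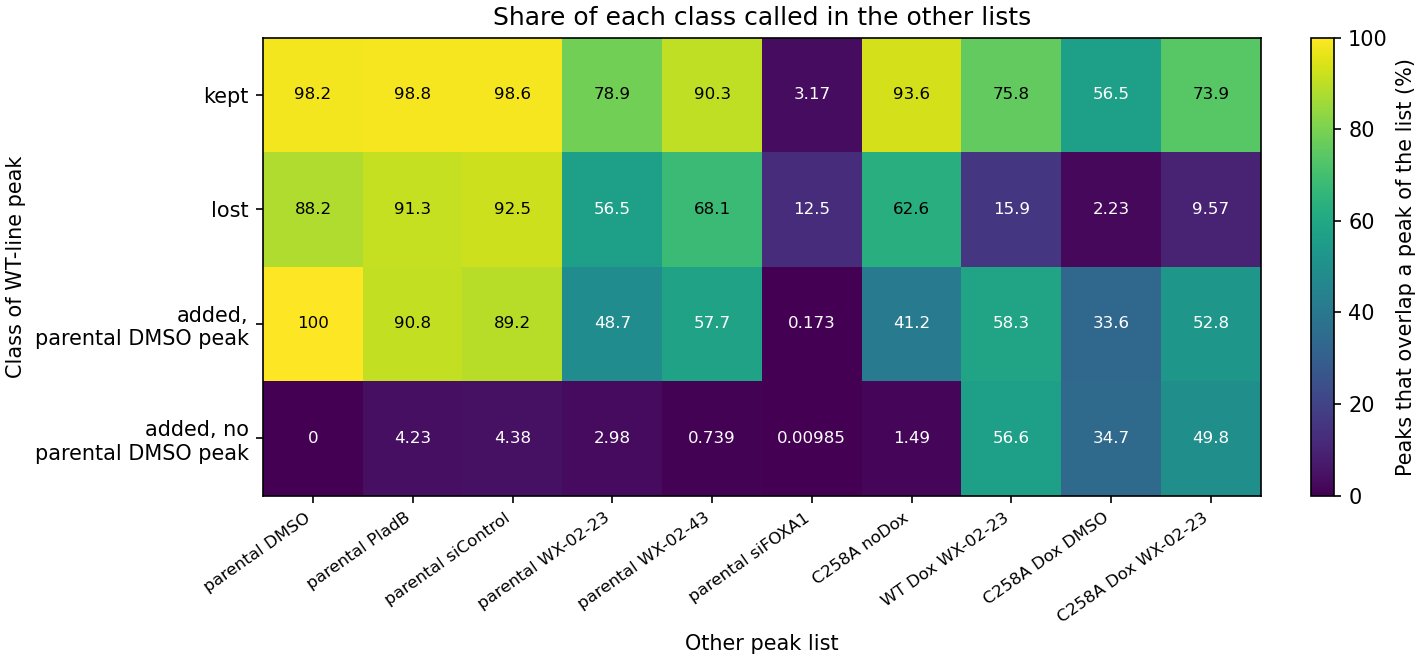
Percent of kept, lost and added peaks (rows) that overlap a peak of each of the other lists (columns), as numbers and colour. New sites (bottom row) lie at 4.38% or less in the lists without doxycycline and between 34.7% and 56.6% in the lists with it. The parental DMSO values of the added rows follow from their definition. Low values of new sites in the other lists without doxycycline can follow from it in part.

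Lost peaks overlapped peaks called after FOXA1 knockdown more often than kept peaks did, a comparison chosen after the values were seen. A siFOXA1 peak lay at 12.5% (11.2 to 13.9%) of lost and 3.17% (2.76 to 3.63%) of kept peaks, and the share was higher among lost than among kept peaks in all 10 score groups. Of the no-doxycycline peaks in score groups 6 to 10 that overlapped a siFOXA1 peak, 215 of 227 were lost (94.7%, 91.0 to 97.0%). Without a siFOXA1 peak, 1651 of 4060 peaks of those groups were lost (40.7%, 39.2 to 42.2%). In score group 1 the loss was 2.59% with and 0.404% without a siFOXA1 peak, from 3 lost peaks each. The 285 lost peaks with a siFOXA1 peak were widely called in the other parental lists, at between 95.1 and 95.4%, and rarely with doxycycline, at 4.91% in WT cells with WX-02-23 and 3.51% in C258A cells with DMSO. Low shares with doxycycline follow in part from the definition of lost peaks. How much FOXA1 remained after knockdown was not analysed here, and the control used for peak calling is not given in the sources used here, so the part of either in this difference was not tested.

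Most added peaks lay far from the no-doxycycline peaks. Measured between nearest edges, the median distance was 103 kb for all added peaks, 87.3 kb for those at parental sites and 108 kb for new sites. For all added peaks it was 211 kb with the top 50% of each list and 62.2 kb against the no-doxycycline lists of both engineered lines, that is, it moved with the number of reference peaks. Only 0.950% (0.826 to 1.09%) of new sites lay within 1 kb of a no-doxycycline peak and 6.28% between 1 and 10 kb, while 40.3% lay between 10 and 100 kb, 50.9% between 100 kb and 1 Mb and 1.55% farther. The parental DMSO peaks found in neither WT-line list had nearly the same profile, with a median of 103 kb and 1.26% within 1 kb. By this measure new sites were no closer to no-doxycycline peaks than parental sites that stayed uncalled. By score group, the median for new sites was shortest in group 1 at 96.1 kb and longest in group 6 at 115 kb, with 105 kb in group 10. Their median distance to the nearest parental DMSO peak was 31.1 kb, and 3.45% lay within 1 kb of one. A lost peak had its nearest induced peak at a median of 35.4 kb.

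**Figure D4:**
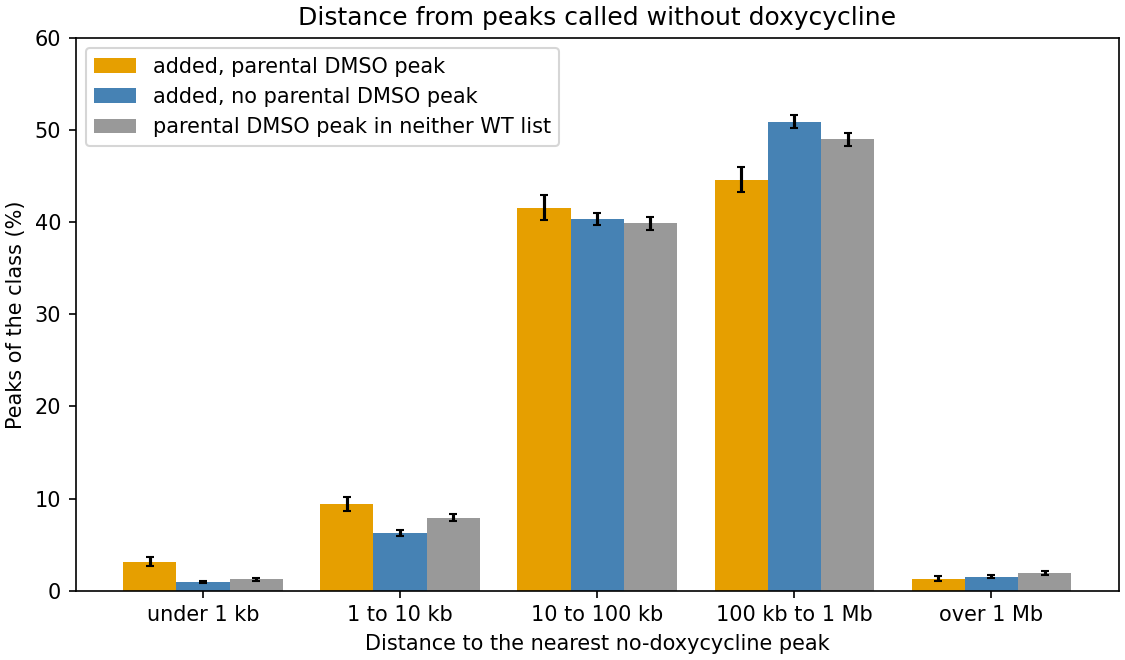
Percent of added peaks at parental sites, new sites and parental DMSO peaks in neither WT-line list, by distance in bp classes to the nearest no-doxycycline peak, with Wilson 95% intervals as bars. New sites and the uncalled parental peaks differ by less than 2 percentage points in each distance class, with 50.9% and 49.0% between 100 kb and 1 Mb.

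Chromosomes differed in how much they gained. The added share was lowest on chromosome 19, at 67.6% (61.2 to 73.4%), then on chromosome 22 at 71.6% and on chromosome 16 at 75.0%. It was highest on chromosome Y at 89.4% (83.6 to 93.3%), on chromosome 13 at 84.5% (82.5 to 86.2%) and on chromosome X at 84.1% (80.8 to 86.9%), against 80.4% over all. Chromosome 19 went from 121 peaks without doxycycline to 222 with it, a ratio of 1.83, and held 645 parental DMSO peaks. Chromosome 13 went from 282 to 1455 peaks, a ratio of 5.16, and held 985 parental DMSO peaks. The lists cover chromosome Y thinly, with 34 peaks without doxycycline and 160 with it.

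The added share tended to be lower on chromosomes with more genes, with exceptions. Chromosome X had 5.47 protein-coding genes per Mb and an added share of 84.1%, while chromosome 10 had 5.42 and 79.4%. Chromosome 19 had 24.6 protein-coding genes per Mb and chromosome 13 had 3.52, counted from the RefSeq table of GRCh38.p14 over the span of the chromosome that held peaks. Across 24 chromosomes the Spearman rho of gene density was -0.81 with the added share and -0.81 with the ratio of induced to no-doxycycline peaks. It was -0.66 with the ratio of all induced to parental DMSO peaks (-0.81 over the 22 autosomes). With the kept share it was -0.27 (-0.54 over the autosomes), so the relation was not limited to added peaks. Peaks per Mb in the no-doxycycline list had a rho of -0.16 with gene density, parental DMSO peaks 0.19 and new sites -0.47. Among the 22 autosomes alone these were -0.39, 0.05 and -0.73. All points share the same libraries, so these values describe the lists, and base composition and copy number, which can vary together with gene density, were not measured here.

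**Figure D5:**
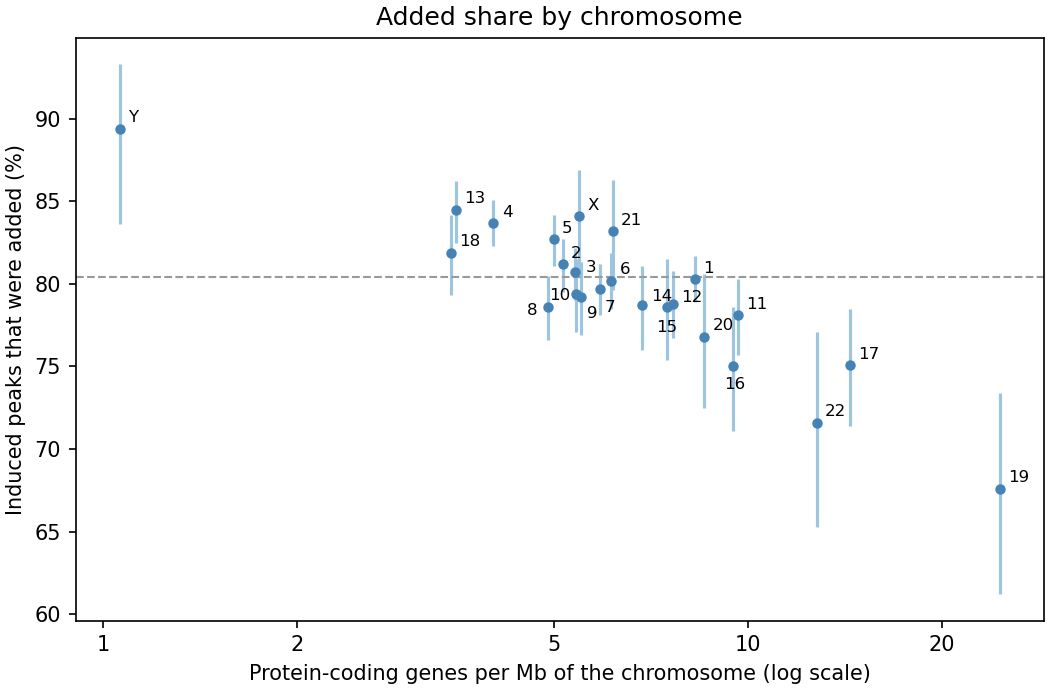
Percent of induced peaks that were added, with Wilson 95% intervals, against protein-coding genes per Mb on a log axis, for each chromosome; the dashed line is the share over all chromosomes, 80.4%. Gene-rich chromosome 19 lies lowest at 67.6%, and gene-poor chromosomes 13 and Y lie at 84.5% and 89.4%.

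Some induced peaks lay in windows that the no-doxycycline list left empty, most of which held parental peaks. Of 2835 windows of 1 Mb with an induced peak, 342 (12.1%, 10.9 to 13.3%) had no no-doxycycline peak, and 327 of these had a parental DMSO peak. They held 2007 induced peaks (6.32%), up to 32 in 1 window. In the other direction, 21 of 2514 windows with a no-doxycycline peak had no induced peak. New sites were spread over many windows, and the 10% of windows with most of them held 29.0%.

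The 3 windows with the most new sites lay close together on chromosome 1 (hg19). From 188000001 to 189000000 there were 6 peaks without and 57 with doxycycline, of which 46 were new sites, and 10 parental DMSO peaks. The same window held 10 siControl peaks, 9 C258A peaks without doxycycline, 34 each in WT cells with WX-02-23 and C258A cells with DMSO, and 40 in C258A cells with WX-02-23. From 190000001 to 191000000 there were 5 peaks without and 51 with doxycycline, and 42 were new sites. From 191000001 to 192000000 there were 5 and 47, and 40 were new sites. All 4 lists made with doxycycline were denser in these 3 windows than any of the 8 made without it. The windows were chosen for their new sites. The many peaks of the induced list there, and the few of the no-doxycycline and parental DMSO lists, follow in part from that choice.

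The windows with the most lost peaks were of different kinds. On chromosome 4 from 49000001 to 50000000 all 9 no-doxycycline peaks were lost, and 4 induced peaks lay elsewhere in the window. That window held 40 siFOXA1 peaks, more than any other list had there. On chromosome 10 from 80000001 to 81000000, 6 of 9 no-doxycycline peaks were lost and none was added, while parental cells had 16 peaks with DMSO and 16 with siControl. On chromosome 21 from 18000001 to 19000000, 6 of 8 were lost and 10 were added, 6 of them new sites.

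Single peaks named by their scores show the classes by position. Genes near them were not analysed here, since no annotation of hg19 was used. The kept peaks with the highest no-doxycycline scores lay on chromosome 10 from 98430445 to 98431167 (score 3181), chromosome 17 from 5135355 to 5135992 (score 3153) and chromosome 13 from 82448162 to 82448869 (score 3100). All 3 were called in all 12 lists, siFOXA1 included, and ranked 85, 20 and 16 of 31735 with doxycycline.

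The strongest lost peaks were unlike the rest of their class in width. The first lay on chromosome Y from 58841435 to 58848477, was 7043 bp wide and scored 938. The next, on chromosome 14 from 38060367 to 38062036, was 1670 bp wide and scored 741. The last, on chromosome 16 from 46432002 to 46435802, was 3801 bp wide and scored 708. None of them overlapped a peak of the parental DMSO or siControl lists, but each was called in another list made with doxycycline. The chromosome Y peak was called in 4 of 12 lists. Besides the no-doxycycline list, these were parental cells with WX-02-23, parental cells with WX-02-43 (rank 1491) and C258A cells induced in DMSO (rank 372). The chromosome 16 peak was called in 3 of 12, with siFOXA1 (rank 1392) and in WT cells with WX-02-23 (rank 22291) besides the no-doxycycline list. The chromosome 14 peak was called in 2 of 12 lists, without doxycycline and in WT cells with WX-02-23, where its score of 2525 ranked 46 of 25849. FOXA1 itself is on chromosome 14, and whether this peak lies at that gene, and whether DNA of the introduced FOXA1 construct adds reads to it, was not tested. These peaks therefore do not stand for the 2289 lost ones, of which 88.2% were parental DMSO peaks.

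The strongest added peaks at parental sites had unlike ranks in the parental DMSO list. A peak on chromosome 7 from 14709344 to 14711132 scored 3162 and ranked 6 with doxycycline, and ranked 15932 of 30557 in the parental DMSO list. One on chromosome 12 from 91252858 to 91253961 ranked 14 with doxycycline and 19661 in parental cells. The third, on chromosome 10 from 22588706 to 22589689, ranked 11 and 2456, which is within score group 1 of the parental list. Their nearest no-doxycycline peaks were 16.2, 141 and 14.8 kb away.

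The strongest new sites that were in no list without doxycycline were called in all 4 lists with it. They lay on chromosome 1 from 245824429 to 245826352 (score 3148, rank 7), chromosome 1 from 45281993 to 45282897 (score 3100, rank 9) and chromosome 22 from 28441849 to 28443170 (score 3100, rank 27). In C258A cells with DMSO they ranked 20, 73 and 15 of 13299. A score of 3100 was shared by 35 induced peaks, so ranks among those were set by position alone.

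Of the 314 new sites over 1 Mb from any no-doxycycline peak, the strongest lay on chromosome 1 from 243391461 to 243392518, at 1098 kb, and ranked 565 with a score of 1388. The next lay on chromosome 6 from 66899497 to 66900170 (score 929) and chromosome 20 from 34319105 to 34319950 (score 914). All 3 were called in the 4 lists with doxycycline and in no other list.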

How the data were processed

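Per the submitters' processing notes, reads were handled with bcl2fastq and Bowtie2 and the genome build was hg19; peak names in the deposited files begin with MACS. Caller version, thresholds and control are not given in the sources used here. Cells were fixed with 1.1% formaldehyde, per the labels' protocols. Each deposited list has 5 columns, and the last is the authors' score per peak, at least 90 in every list. Each list belongs to 1 sample, and no list holds overlapping neighbours.

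All 12 lists were read, and positions are printed counted from 1. Overlaps (Python 3.11.15, pandas 2.3.3) were checked against bedtools 2.31.1, also on drawn intervals, and intervals came from scipy 1.17.1. Distances run between nearest edges. Positions are those of the 3 highest scores per class, of the 3 windows with the most new sites or lost peaks, and of the 3 chromosomes at each end of the added share (at least 20 induced peaks). The comparison, lists and rules were chosen with earlier results of these data known. Alternatives were other overlap rules, list lengths, references and windows. Gene names, motifs and peak sequences were not analysed here, since the tables used are of GRCh38.p14. The 3 input samples were not analysed here.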

Additional observations from a re-analysis of the deposited data

How the results depend on the processing

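Of 62 alternative values for 11 results, 25 lay inside the interval of the reported value (counts: within 1.5 times) and 37 outside it. No result has a test, since each group had 1 library, and the depth behind each list is unknown. No paired analysis was possible because each group had 1 library and the values come from no test. With the induced list at the length of the shorter list, the kept share was 34.2%, 5708 peaks were added, 93.7% of lost and 23.8% of added peaks were parental and the median distance was 99.8 kb. With the top 50% of each list these were 70.7%, 12851, 97.5%, 28.7% and 211 kb; fewer peaks lengthen distances by construction. A reciprocal overlap of 50% gave a kept share of 60.5%, parental shares of 38.2% for lost and 21.1% for added peaks, and 96.8 kb. A gap of up to 500 bp gave a parental share of added peaks of 21.4%. With siControl as the parental reference, 92.5% of lost and 21.7% of added peaks were parental, and with DMSO, PladB and siControl together 94.6% and 25.3%. Against the no-doxycycline lists of both lines, 23068 peaks were added, at a median of 62.2 kb. Without peaks that overlap a siFOXA1 peak (an alternative added with the data in view), 75.2% were kept and the distance was 108 kb. Autosomes alone moved 1 of 10 values, the distance to 101 kb. Windows of 500 kb gave 26.6% without a no-doxycycline peak.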

Other observations

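Spacing within each list was not part of the comparison. The median gap between neighbouring peaks was 182 kb without doxycycline, 41.1 kb with it and 51.2 kb in the parental DMSO list, and 7.91%, 21.3% (20.8 to 21.7%) and 17.4% of gaps were under 10 kb. Among new sites alone the median gap was 58.5 kb, and 17.4% (16.9 to 18.0%) were under 10 kb. A longer list has shorter gaps by construction, so the induced list is best read beside the parental DMSO list, which is nearly as long.

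The kept share varied by chromosome as well, in an order looked at after the values were seen. It was lowest on chromosome Y at 52.9% (36.7 to 68.5%), X at 57.5% (49.6 to 65.1%), 20 at 59.1% (51.5 to 66.4%) and 19 at 59.5% (50.6 to 67.8%), against 73.3% over all, and highest on chromosome 13 at 80.9% (75.9 to 85.0%). Chromosomes 19 and X thus had kept shares below that of all chromosomes, while the added share was the lowest of all on 19 and among the 3 highest on X.

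Among new sites, 5371 (26.5%, 25.8 to 27.1%) overlapped no peak of any of the 10 other lists. One of these is the parental DMSO list, which new sites lack by definition, so the share is not set against those of the other classes.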
